A study of Rattus norvegicus with 3 samples.

Results

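The genes of central carbon metabolism were followed in cultured rat granulosa cells that were stimulated with forskolin and a phorbol ester and made to overexpress the transcription factor NFIL3. The set was chosen by name: all probe sets annotated to 1 of 47 listed gene symbols of glycolysis, the pentose phosphate pathway, pyruvate oxidation, the tricarboxylic acid (TCA) cycle and the glycerol phosphate shuttle, and to no other gene. It came to 44 genes with 72 probe sets, among 14218 genes named on the array. The symbols Pkm, Dlat and Fh had no such probe set and were not analysed here.

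The cells were primary granulosa cells of female Sprague-Dawley rats aged 24 to 25 days, taken 48 h after pregnant mare's serum gonadotropin, and all 3 groups were infected with adenovirus at 50 pfu per cell. The first group, Ad-NFIL3 +FSK/PMA, carried the NFIL3 virus and was given forskolin (FSK, 10 uM) together with the phorbol ester PMA (20 nM) for 6 h, beginning 24 h after infection. The second group, Ad-GFP +FSK/PMA, had the same drugs with a virus for green fluorescent protein, and the third group, Ad-GFP, had that virus without the drugs. Forskolin activates adenylyl cyclase and the phorbol ester activates protein kinase C. Each group was 1 Affymetrix array hybridised with RNA pooled from 3 experiments, so every value below compares pools and no p-value can be given; having 3 arrays in all limits the precision. In such bulk RNA, fewer cells of a type and less RNA per cell cannot be told apart.

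Glycolysis turns glucose into pyruvate in the cytosol. The committed step is that of phosphofructokinase, whose activator, a regulatory fructose bisphosphate, is made and removed by the bifunctional Pfkfb enzymes. Pyruvate becomes lactate through lactate dehydrogenase or enters the mitochondrial TCA cycle through the pyruvate dehydrogenase complex, which the Pdk kinases switch off. Granulosa cells of the follicle are glycolytic and are known to supply pyruvate and lactate to the oocyte, while the pentose phosphate pathway, malic enzyme and cytosolic isocitrate dehydrogenase make the NADPH that steroid and lipid synthesis use.

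Values are MAS5 signals, intensities per probe set on a linear scale, and signals under 126, the median of all signals, were raised to that floor before differences were taken. A difference is a bound ("at least") where 1 of the 2 arrays lay under the floor. Nfil3 was read as a check of the labels, with signals of 5882 in Ad-NFIL3 +FSK/PMA, 1321 in Ad-GFP +FSK/PMA and 564 in Ad-GFP. The granulosa genes Inha and Inhba had signals of 8520 or more on every array. The theca genes Cyp17a1 and Insl3 and the leukocyte genes Ptprc, Itgam and Cd3e were under the floor on all 3. Col3a1 and Dcn of the theca and stroma list and Cd68 and Cd14 of the leukocyte list were above it on all 3. Dcn had 481 in Ad-NFIL3 +FSK/PMA, 196 in Ad-GFP +FSK/PMA and 201 in Ad-GFP, 2.45-fold higher with NFIL3. The 7 granulosa markers summed to 31604 in Ad-NFIL3 +FSK/PMA, 58591 in Ad-GFP +FSK/PMA and 69840 in Ad-GFP, a sum carried by Inha and Inhba. With FSK/PMA Cyp19a1 was at least 19.8-fold higher and Inha 1.13-fold higher. Lower were Hsd17b1 (3.76-fold), Foxl2 (3.39-fold), Nr5a2 (3.00-fold), Amh (1.43-fold) and Inhba (1.34-fold). With NFIL3 the lower ones were Hsd17b1 (3.07-fold), Inhba (2.57-fold), Cyp19a1 (2.51-fold), Inha (1.61-fold) and Foxl2 (1.24-fold). Amh and Nr5a2 were 1.19-fold and 1.04-fold higher with NFIL3. In Ad-NFIL3 +FSK/PMA, Ad-GFP +FSK/PMA and Ad-GFP, 6 leukocyte markers summed to 2158, 1974 and 945, of which Cd14 alone made 1562, 1488 and 606. In the same order, 2 red cell markers summed to 15713, 18366 and 19937, of which Hbb alone made 15376, 18005 and 19442. The sums were 1299, 850.2 and 1046 for 7 theca and stroma markers and 430.1, 575 and 967 for 5 oocyte markers. Of the oocyte markers Zp2 made 269, 406 and 891, and Zp1, Zp3, Gdf9 and Bmp15 were under the floor on all arrays. For 4 endothelial markers (Pecam1 and Tek under it) the sums were 514, 476 and 385. The part of these cell types in the differences below was not tested. Where a gene had 2 measured probe sets, their log2 differences disagreed with a robust SD of 0.34 for FSK/PMA and 0.24 for NFIL3, which is a technical spread that leaves out differences between cultures.

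The first comparison, Ad-GFP +FSK/PMA against Ad-GFP, asked how the stimulus moved these genes. The widest differences were at single steps. Pfkfb3, which makes the activator of phosphofructokinase, was 4.70-fold higher, and Eno2, an enolase isozyme, was 2.78-fold higher. Pdk2, a kinase that switches off pyruvate dehydrogenase, was at least 2.94-fold lower, and Pfkm, the muscle type phosphofructokinase, was 2.52-fold lower. The 4 members of the pentose phosphate pathway had lower signals, as did 5325 of all 9395 measured genes. A further list held 5 measured genes of that pathway, with a median log2 difference of -0.12. Of these, H6pd and Rpia were 1.85-fold and 1.59-fold higher, and Rpe, Rbks and Shpk were lower. A dimmer probe set of Rpia was lower too, at -0.38 on the log2 scale.

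Of the 44 genes 42 were measured, Pfkfb2 and Pdk4 being under the floor on both arrays. A difference of 2-fold or more was found in 2 genes on the higher side and 2 on the lower side, beside 7.43% of all 9395 measured genes on the higher side and 11.4% on the lower. At 1.5-fold, 5 genes were higher and 12 were lower, against 14.9% and 24.0% of all measured genes. These shares of the 42 were 11.9% and 28.6%. The median log2 difference of the 42 was -0.17, beside -0.10 over all measured genes, and their median absolute difference was 0.42, beside 0.45. When arrays were scaled to equal medians, which moved the median of all genes from -0.10 to 0.03, the split at 1.5-fold was 7 higher and 7 lower. The sign of the difference was the same under 3 scalings for 35 genes, and the 7 others were Tpi1, Pgam1, Ldhb, Pdhb, Cs, Idh1 and Mdh1.

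**Figure D1:**
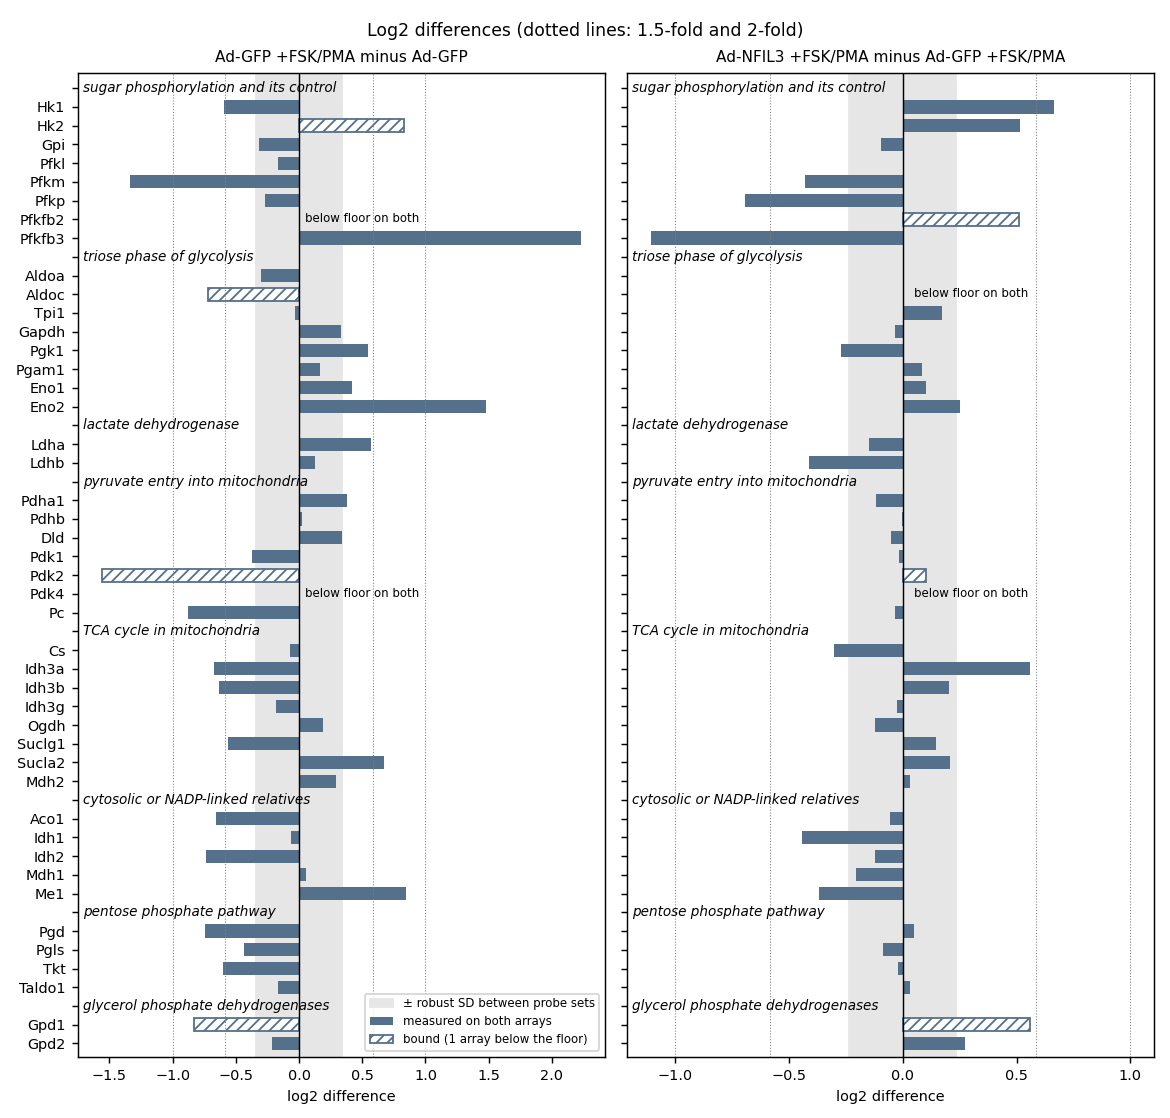
Log2 difference of each gene (horizontal axis) in Ad-GFP +FSK/PMA minus Ad-GFP (left) and Ad-NFIL3 +FSK/PMA minus Ad-GFP +FSK/PMA (right), with genes grouped by role. Filled bars were above the floor on both arrays, hatched bars are bounds, the grey band is the robust SD between probe sets (0.34 and 0.24), and Pfkfb3 has the longest bar in each panel, at 2.23 and -1.10.

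At the entry of glycolysis the isozymes differed in opposite directions. Hk2, the inducible hexokinase, had signals of 320 in Ad-NFIL3 +FSK/PMA, 224 in Ad-GFP +FSK/PMA and 5.43 in Ad-GFP, so it passed the floor only under stimulation and was at least 1.78-fold higher with FSK/PMA. Hk1, the hexokinase of most tissues, had signals of 1700 in Ad-NFIL3 +FSK/PMA, 1073 in Ad-GFP +FSK/PMA and 1623 in Ad-GFP, the array with the stimulus alone being the low one. Its 1.51-fold lower signal was not shared by all its probe sets: the dimmer ones read by the array's hexokinase controls differed by 0.15 at the 3' end and -0.31 in the middle. The control at the 5' end was under the floor in Ad-GFP +FSK/PMA and in Ad-GFP, at 74.7 and 106, so no hexokinase ratio of 3' to 5' signal is given. For beta-actin that ratio was 3.08 in Ad-NFIL3 +FSK/PMA, 3.80 in Ad-GFP +FSK/PMA and 2.61 in Ad-GFP. For Gapdh it was 1.14, 1.15 and 1.28 in the same order, so these controls ranked the arrays differently. The part of RNA quality in the Hk1 difference was not tested.

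The phosphofructokinases differed in size. Pfkm had signals of 559 in Ad-NFIL3 +FSK/PMA, 752 in Ad-GFP +FSK/PMA and 1895 in Ad-GFP, so both stimulated arrays lay well below the unstimulated one. A second probe set of Pfkm read 170, 242 and 802 on those arrays, a log2 difference of -1.73 with FSK/PMA beside -1.33 for the brightest. Pfkp, the platelet type, had signals of 4906, 7927 and 9558 in the same order, 1.21-fold lower with FSK/PMA. Pfkl, the liver type, had the smallest difference of these enzymes, with 465 in Ad-NFIL3 +FSK/PMA, 465 in Ad-GFP +FSK/PMA and 521 in Ad-GFP. Gpi, the isomerase before this step, had 3785, 4047 and 5032 in the same order, 1.24-fold lower with FSK/PMA.

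Pfkfb3 moved the other way from Pfkm. Its signals were 306 in Ad-NFIL3 +FSK/PMA, 658 in Ad-GFP +FSK/PMA and 140 in Ad-GFP, the last just above the floor, and 1.29% of all measured genes had as large a difference on the higher side. The other 2 probe sets of Pfkfb3 were under the floor on all arrays, so the difference rests on 1 probe set. Pfkfb2, a second bifunctional enzyme, reached the floor only in Ad-NFIL3 +FSK/PMA, with signals of 179, against 116 in Ad-GFP +FSK/PMA and 77.2 in Ad-GFP.

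Below the aldolase step, most differences of glycolytic genes were modest. Eno2 was the exception, with 1138 in Ad-NFIL3 +FSK/PMA, 955 in Ad-GFP +FSK/PMA and 343 in Ad-GFP. Eno1, the common enolase, had 9193, 8572 and 6428 in the same order, 1.33-fold higher with FSK/PMA. Both enolases were thus higher on both stimulated arrays. Pgk1, phosphoglycerate kinase, had 10810 in Ad-NFIL3 +FSK/PMA, 13058 in Ad-GFP +FSK/PMA and 8939 in Ad-GFP, 1.46-fold higher with FSK/PMA, and a second probe set differed by 0.54 on the log2 scale beside 0.55. Gapdh, which is often used to normalise RNA measurements, had 19400, 19857 and 15781 in the same order, 1.26-fold higher with FSK/PMA. Its 3 probe sets, all of them controls of the array that read the 3' end, middle and 5' end, gave log2 differences of 0.33, 0.37 and 0.49, and its brightest was at 0.06 with quantile normalisation.

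The remaining triose enzymes were flat or lower with FSK/PMA. Aldoa, the main aldolase of most tissues, had 13186 in Ad-NFIL3 +FSK/PMA, 13163 in Ad-GFP +FSK/PMA and 16185 in Ad-GFP, 1.23-fold lower. Aldoc, the brain type aldolase, was above the floor only in Ad-GFP, with 92.8, 108 and 207 in the same order, at least 1.65-fold lower. Tpi1, triose phosphate isomerase, and Pgam1, phosphoglycerate mutase, differed by -0.03 and 0.17 on the log2 scale. Ldha, the lactate dehydrogenase subunit that favours lactate formation, had 10715 in Ad-NFIL3 +FSK/PMA, 11879 in Ad-GFP +FSK/PMA and 8018 in Ad-GFP. It was higher by 0.57 on the log2 scale with FSK/PMA, just short of the 1.5-fold line. Ldhb, the heart type subunit, had 5034, 6692 and 6122 in the same order, a log2 difference of 0.13.

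**Figure D2:**
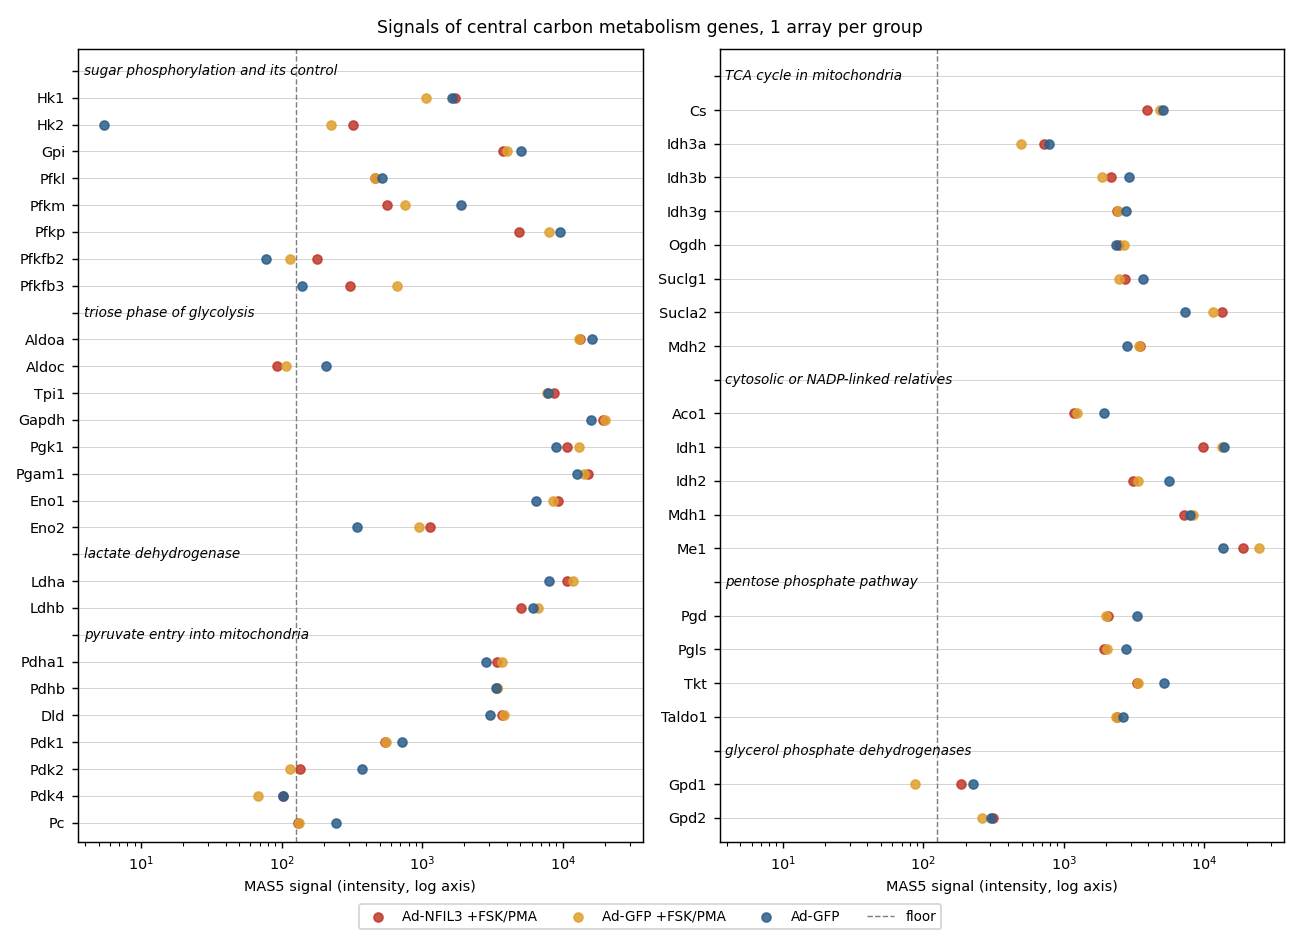
MAS5 signal of each gene (log axis) on the Ad-NFIL3 +FSK/PMA, Ad-GFP +FSK/PMA and Ad-GFP arrays, 1 point per array, with the floor of 126 as a dashed line. Hk2 (5.43 in Ad-GFP), Pfkfb3, Eno2, Pdk2 and Pfkm show wide gaps between the stimulated arrays and Ad-GFP, and most other genes have 3 points close together.

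At the entry of pyruvate into mitochondria the 2 kinase genes measured among the members were lower with FSK/PMA, and subunit genes of the complex were higher or flat. Pdk2 had signals of 135 in Ad-NFIL3 +FSK/PMA, 114 in Ad-GFP +FSK/PMA and 371 in Ad-GFP, so it was near the floor on both stimulated arrays. Pdk1 had 546, 553 and 717 in the same order, 1.30-fold lower with FSK/PMA, and Pdk4 was under the floor on all arrays. The kinase gene Pdk3 of the further list was 1.17-fold lower, and 1.37-fold lower by a dimmer probe set. Of the complex, Pdha1 was 1.30-fold higher and Dld was 1.27-fold higher, a log2 difference of 0.34, the size of the spread between probe sets. Pdhb was flat at 1.02-fold, and its sign changed with the scaling. A second, dimmer probe set of Pdha1 gave a larger difference, with 527 in Ad-NFIL3 +FSK/PMA, 929 in Ad-GFP +FSK/PMA and 389 in Ad-GFP, a log2 difference of 1.26 with FSK/PMA beside 0.38 for the brightest. Pc, pyruvate carboxylase, which refills the cycle with oxaloacetate, had 131, 134 and 246 in the same order and was 1.84-fold lower.

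Within the TCA cycle, subunits of succinyl-CoA ligase differed in opposite directions with FSK/PMA, while those of isocitrate dehydrogenase went together. Idh3a, the catalytic subunit of the NAD-linked isocitrate dehydrogenase, had 726 in Ad-NFIL3 +FSK/PMA, 492 in Ad-GFP +FSK/PMA and 785 in Ad-GFP, 1.60-fold lower. Its partner subunit gene Idh3b was 1.55-fold lower, with 2164, 1879 and 2911 in the same order, and Idh3g was 1.13-fold lower. All 3 subunit genes were thus lower. Of succinyl-CoA ligase, Sucla2, the ADP-forming beta subunit, had 13277 in Ad-NFIL3 +FSK/PMA, 11512 in Ad-GFP +FSK/PMA and 7225 in Ad-GFP, 1.59-fold higher, whereas Suclg1, the alpha subunit, had 2736, 2473 and 3643 in the same order, 1.47-fold lower. Cs, citrate synthase, Ogdh, a subunit of the oxoglutarate dehydrogenase complex, and Mdh2, mitochondrial malate dehydrogenase, lay within 1.5-fold, at log2 differences of -0.07, 0.19 and 0.30. Over the 8 genes of this group the median was -0.13, beside -0.10 over all measured genes. At 1.5-fold 1 gene (12.5%) was higher and 2 (25%) were lower, beside 14.9% and 24.0% of all measured genes.

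The enzymes that make cytosolic NADPH and their relatives differed both ways. Me1, cytosolic malic enzyme, had 18855 in Ad-NFIL3 +FSK/PMA, 24347 in Ad-GFP +FSK/PMA and 13532 in Ad-GFP, 1.80-fold higher with FSK/PMA. A second probe set of Me1 agreed in direction, with 13665, 20762 and 10280 in the same order and a log2 difference of 1.01. Idh2, the NADP-linked mitochondrial isocitrate dehydrogenase, was lower on both stimulated arrays, with 3104 in Ad-NFIL3 +FSK/PMA, 3376 in Ad-GFP +FSK/PMA and 5631 in Ad-GFP, 1.67-fold lower with FSK/PMA. Aco1, the cytosolic aconitase that also binds iron-responsive RNA, had 1185, 1231 and 1946 in the same order, 1.58-fold lower. Idh1 and Mdh1, the cytosolic isocitrate and malate dehydrogenases, differed by -0.06 and 0.05 on the log2 scale, and a dimmer probe set of Mdh1 by -0.54.

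The 4 pentose phosphate members all had lower signals with FSK/PMA, beside 5325 of all 9395 measured genes on the lower side. Pgd, phosphogluconate dehydrogenase, had 2051 in Ad-NFIL3 +FSK/PMA, 1984 in Ad-GFP +FSK/PMA and 3326 in Ad-GFP, 1.68-fold lower with FSK/PMA. Tkt, transketolase, had 3334, 3386 and 5143 in the same order, 1.52-fold lower. Pgls, phosphogluconolactonase, was 1.35-fold lower and Taldo1, transaldolase, was 1.12-fold lower. For Taldo1 the log2 difference was -0.17, inside the 0.34 spread between probe sets. The stimulated arrays lay close together and under Ad-GFP for all 4 genes, and the median log2 difference was -0.52, beside -0.10 over all measured genes. With arrays scaled to equal medians, Taldo1 was at -0.03 and the other 3 between -0.29 and -0.61. The glycerol phosphate dehydrogenases also had lower signals: Gpd1, the cytosolic enzyme, had 186 in Ad-NFIL3 +FSK/PMA, 86.8 in Ad-GFP +FSK/PMA and 224 in Ad-GFP, at least 1.78-fold lower, and Gpd2, the mitochondrial one, had 315, 260.1 and 302 in the same order, 1.16-fold lower by its brightest probe set and 2.09-fold lower by the other.

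The second comparison, Ad-NFIL3 +FSK/PMA against Ad-GFP +FSK/PMA, asked what NFIL3 overexpression did to these genes under stimulation. Few members differed by 1.5-fold. Pfkfb3 was 2.15-fold lower with the NFIL3 virus and Pfkp was 1.62-fold lower, while Hk1 was 1.58-fold higher. No other member reached 1.5-fold by its brightest probe set with the arrays as deposited. Both comparisons use the Ad-GFP +FSK/PMA array, so the opposite directions of Pfkfb3 and of Hk1 were both read against that array. The same holds for every gene below with opposite directions, such as Idh3a, Gpd1, Me1, Me2 and Txnip. The part of that array in them was not tested.

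Of 42 measured genes, 0 passed 2-fold on the higher side and 1 on the lower, beside 1.34% and 0.958% of all 9397 measured genes. At 1.5-fold, 1 gene was higher and 2 were lower, against 6.81% and 4.25% of all measured genes. The median log2 difference of the members was -0.02, beside 0.03 over all measured genes. With arrays scaled to equal medians, which moved the median of all genes from 0.03 to -0.20, the split at 1.5-fold was 0 higher and 6 lower: Hk1 was at 0.43 on the log2 scale, and Idh1, Me1, Ldhb and Pfkm, at -0.68, -0.61, -0.65 and -0.66, joined Pfkfb3 and Pfkp. In all, 16 of 41 genes measured under 3 scalings changed sign between them. Aldoc and Pdk4 were under the floor on both arrays.

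**Figure D3:**
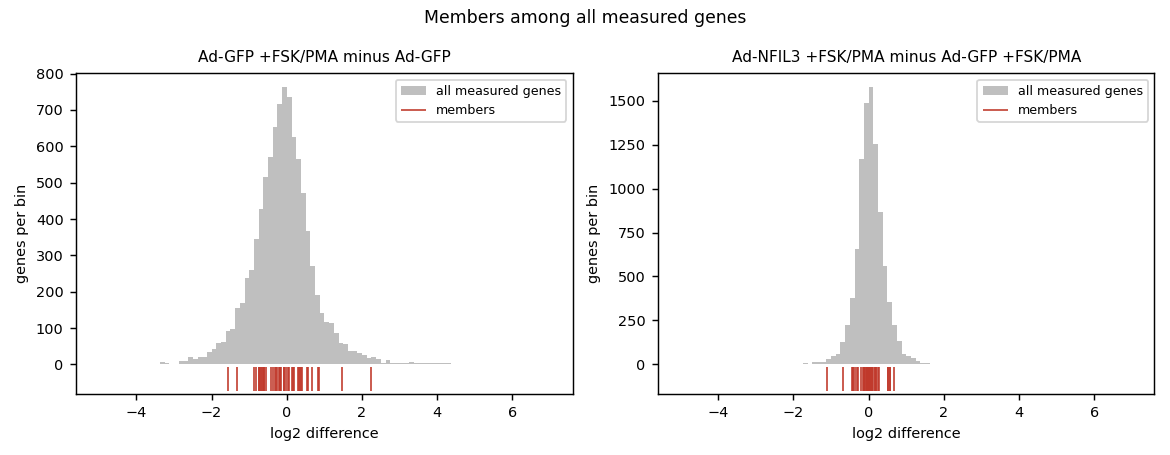
Number of genes per bin of log2 difference (grey) for Ad-GFP +FSK/PMA minus Ad-GFP (left) and Ad-NFIL3 +FSK/PMA minus Ad-GFP +FSK/PMA (right), with the 42 measured members of each as red ticks under the axis. The ticks run from -1.56 (Pdk2, a bound) to 2.23 (Pfkfb3) on the left and from -1.10 (Pfkfb3) to 0.66 (Hk1) on the right, inside the range of all measured genes.

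Among the upstream genes Pfkfb3 stood lowest with NFIL3, at 306 against 658, and 0.681% of measured genes had as large a difference on the lower side. Its signal in Ad-NFIL3 +FSK/PMA still lay above the 140 of Ad-GFP. For Pfkp, at 4906 against 7927, 2.68% of genes differed as far, and Pfkm had a log2 difference of -0.43. The phosphofructokinase genes Pfkp and Pfkm and the kinase gene Pfkfb3 were thus all lower, with Pfkl at 0.00. Hexokinase signals were higher: Hk1 had 1700 in Ad-NFIL3 +FSK/PMA against 1073 in Ad-GFP +FSK/PMA, and its hexokinase control probe sets gave 0.37 at the 3' end, 0.63 in the middle and at least 0.37 at the 5' end. Hk2, at 320 against 224, was 1.43-fold higher, and Pfkfb2 was at least 1.42-fold higher.

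Further down, the brightest probe sets were within 1.5-fold with NFIL3 as deposited. Second probe sets of Pdha1, at 527 in Ad-NFIL3 +FSK/PMA against 929 in Ad-GFP +FSK/PMA, and of Me1, at 13665 against 20762, were 1.77-fold and 1.52-fold lower. Idh3a was 1.47-fold higher, at 726 in Ad-NFIL3 +FSK/PMA against 492 in Ad-GFP +FSK/PMA, and Gpd1 was at least 1.47-fold higher. Lower signals were found for Idh1 (1.36-fold), Ldhb (1.33-fold) and Me1 (1.29-fold), and these 3 stayed on the lower side under all 3 scalings. All 5 genes of the cytosolic or NADP-linked group were lower, with a median of -0.21, beside 4245 of all 9397 measured genes on the lower side. Of these 5, Aco1, Idh2 and Mdh1, at -0.05, -0.12 and -0.21, lay within the 0.24 spread between probe sets. A second probe set of Mdh1 was at 0.01. The triose enzymes lay between -0.27, for Pgk1, and 0.25, for Eno2, and the pentose phosphate genes between -0.09 and 0.05. The pyruvate group lay between -0.12 and 0.10 by its brightest probe sets, beside -0.82 for the second of Pdha1.

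In all, 10 of the genes had several measured probe sets in each comparison. In the FSK/PMA comparison 7 of 10 had 1 direction in all of them, and the exceptions were Cs, Hk1 and Mdh1. In the NFIL3 comparison 8 of 10 did, the exceptions being Mdh1 and Pdk1, whose second probe set differed by 0.36 beside -0.02. In the FSK/PMA comparison the largest gaps between probe sets of 1 gene were those of Pdha1 and Gpd2, so the sizes given for these genes depend on the probe set.

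**Figure D4:**
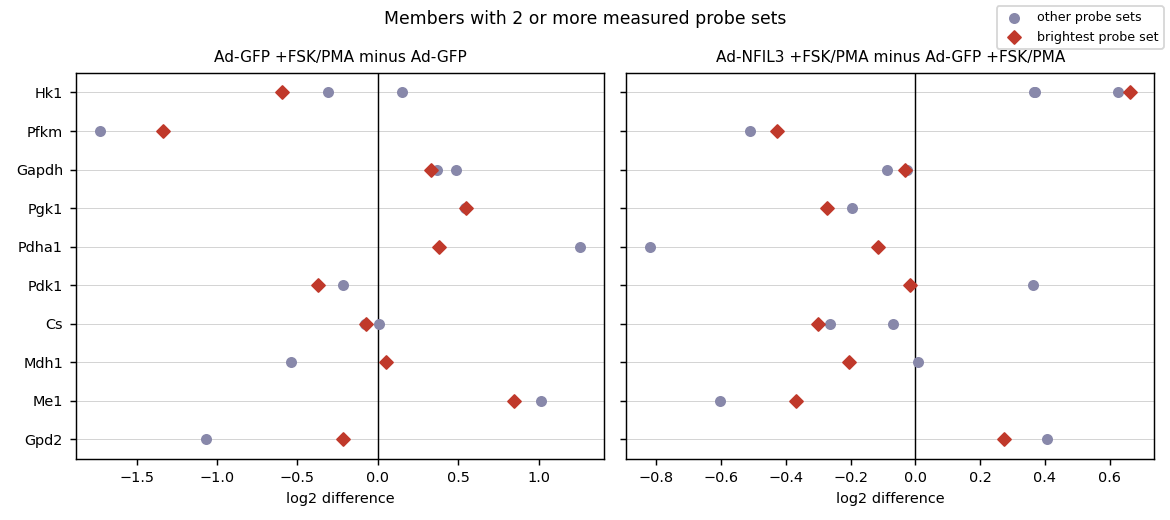
Log2 difference (horizontal axis) of every measured probe set of the 10 genes with more than 1, for Ad-GFP +FSK/PMA minus Ad-GFP (left) and Ad-NFIL3 +FSK/PMA minus Ad-GFP +FSK/PMA (right). Red diamonds are the brightest probe set used for the gene; Pfkm, Pgk1, Gapdh and Me1 keep 1 direction, while Pdha1 (0.38 and 1.26) and Gpd2 (-0.22 and -1.07) are spread widely on the left.

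The promoters of the 4 genes with 2-fold differences under FSK/PMA are shown because these members differed most in each direction. The sequences are those of RefSeq on the rat build GRCr8, from 250 bases before to 50 bases after 1 annotated start of each gene, 5' to 3' on the strand of the gene. Pfkfb3 is at chr17:71944683-71944982 on the plus strand, Eno2 at chr4:159267171-159267470 on the minus strand, Pdk2 at chr10:80483863-80484162 on the minus strand and Pfkm at chr7:131113849-131114148 on the plus strand. Capitals mark matches on either strand to the motifs TGACG (the short form of the cAMP response element), ACGTG (the core bound by hypoxia-inducible factors) and CACGTG (the E-box, which contains ACGTG).
Pfkfb3: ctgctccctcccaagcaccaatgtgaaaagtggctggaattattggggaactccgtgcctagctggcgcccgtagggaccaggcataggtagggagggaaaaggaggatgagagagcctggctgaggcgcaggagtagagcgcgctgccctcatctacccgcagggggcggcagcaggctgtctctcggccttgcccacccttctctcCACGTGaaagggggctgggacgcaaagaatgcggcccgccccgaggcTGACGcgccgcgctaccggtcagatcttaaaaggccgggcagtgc
Eno2: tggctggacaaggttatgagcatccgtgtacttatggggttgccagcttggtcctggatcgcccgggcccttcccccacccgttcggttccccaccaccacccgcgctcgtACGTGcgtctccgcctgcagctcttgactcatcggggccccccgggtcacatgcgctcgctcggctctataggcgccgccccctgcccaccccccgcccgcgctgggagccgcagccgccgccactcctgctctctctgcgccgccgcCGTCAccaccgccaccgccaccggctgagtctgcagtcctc
Pdk2: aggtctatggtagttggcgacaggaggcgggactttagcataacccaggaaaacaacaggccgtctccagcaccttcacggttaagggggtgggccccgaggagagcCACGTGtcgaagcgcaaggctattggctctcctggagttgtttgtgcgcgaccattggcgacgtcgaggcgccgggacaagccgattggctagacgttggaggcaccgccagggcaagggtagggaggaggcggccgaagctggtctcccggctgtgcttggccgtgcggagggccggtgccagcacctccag
Pfkm: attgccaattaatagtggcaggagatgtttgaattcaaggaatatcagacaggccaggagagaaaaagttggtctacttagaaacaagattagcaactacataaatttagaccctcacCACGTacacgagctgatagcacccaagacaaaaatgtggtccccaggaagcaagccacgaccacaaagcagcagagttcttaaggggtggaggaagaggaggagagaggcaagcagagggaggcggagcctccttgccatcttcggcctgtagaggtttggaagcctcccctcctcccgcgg

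Of these 4, Pfkfb3 and Eno2, which were higher, held TGACG, and Pdk2 and Pfkm, which were lower, did not. Among the other members past 1.5-fold with FSK/PMA, TGACG was found in Sucla2, which was higher, and in Hk1 and Idh3b, which were lower. It was thus found in genes of both directions. ACGTG or its reverse was found in all 4 printed promoters. The E-box was found 42 bases before the start of Pfkfb3 and 143 bases before that of Pdk2, a higher and a lower gene. Over the 39 members with a promoter in the table, TGACG was found in 43.6%, beside 34.5% of 7932 measured genes and 22.0% of all 27457 promoters. The full site TGACGTCA was found in 3 members, Ldha, Mdh2 and Ogdh, or 7.69%, beside 3.40% of measured genes and 1.91% of all promoters. ACGTG was found in 33.3%, 27.0% and 19.7% of these sets, CACGTG in 12.8%, 10.1% and 6.65%, and TTANGTAA, the type of site that NFIL3 and PAR bZIP factors bind, in 2.56%, 1.08% and 2.19%. The single member with TTANGTAA was Pgam1. The median GC content was 61.3% for members and for measured genes and 52.3% for all promoters. These matches describe the letters of the window and say nothing of binding.

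Other genes of the same pathways were read from a further list of 77 symbols, of which 50 were measured in the FSK/PMA comparison. At 2-fold 5 were higher and 5 were lower with FSK/PMA, 10% each, beside 7.43% and 11.4% of all measured genes. At 1.5-fold 13 (26%) were higher and 10 (20%) were lower, beside 14.9% and 24.0%, and the median log2 difference was -0.04, beside -0.10. Slc2a1, the basal glucose transporter, had 3539 in Ad-NFIL3 +FSK/PMA, 3098 in Ad-GFP +FSK/PMA and 801 in Ad-GFP, 3.87-fold higher with FSK/PMA. Txnip, an arrestin-like protein that restrains glucose uptake, had 2660, 1192 and 11798 in the same order, 9.90-fold lower. The transporter and its restraint therefore differed in opposite directions, the stimulated arrays being high for Slc2a1 and low for Txnip. Pdp1, the phosphatase that reverses the action of Pdk kinases on pyruvate dehydrogenase, had 1769 in Ad-NFIL3 +FSK/PMA, 2163 in Ad-GFP +FSK/PMA and 853 in Ad-GFP, 2.54-fold higher, where Pdk2 was at least 2.94-fold lower.

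The other higher genes were Myc, a transcription factor gene, at 2.73-fold, G6pc3, a glucose phosphatase subunit, at 2.29-fold, and Esrra, a nuclear receptor gene of mitochondrial metabolism, at 2.04-fold. Lower were Galm, galactose mutarotase, at least 4.15-fold, Slc25a10, the mitochondrial dicarboxylate carrier, at 3.84-fold, Pck2, the mitochondrial phosphoenolpyruvate carboxykinase, at 2.72-fold, and Bpgm, bisphosphoglycerate mutase, at 2.11-fold. Second, dimmer probe sets of Galm, Slc25a10, Pck2 and Bpgm were lower too, at least 1.98-fold, 2.84-fold, 1.92-fold and 1.45-fold. With NFIL3, 47 of these genes were measured and 1 of them passed 2-fold on the higher side and 0 on the lower, beside 1.34% and 0.958% of all measured genes: Txnip was 2.23-fold higher, at 2660 against 1192. Its level in Ad-NFIL3 +FSK/PMA stayed far under the 11798 of Ad-GFP. Slc2a1 differed by 0.19 and Pdp1 by -0.29 on the log2 scale in that comparison.

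**Figure D5:**
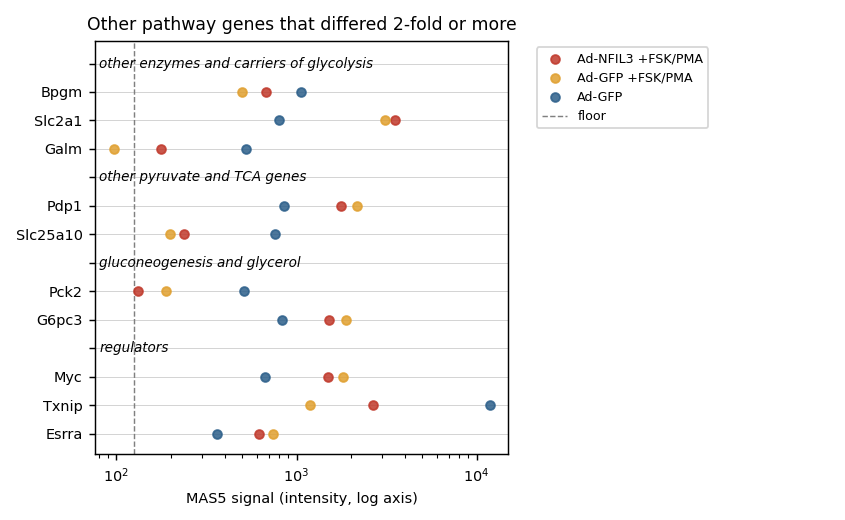
MAS5 signal (log axis) on the Ad-NFIL3 +FSK/PMA, Ad-GFP +FSK/PMA and Ad-GFP arrays, 1 point per array, for the 10 further pathway genes that differed 2-fold or more in either comparison. Txnip is at 2660, 1192 and 11798 and Slc2a1 at 3539, 3098 and 801; the dashed line is the floor of 126.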

How the data were processed

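Granulosa cell RNA was hybridised to 1 Affymetrix rat array per group. Per the submitters' processing notes the authors used MAS5, whose version was not stated, and each deposited value is a signal, that is a linear intensity of 1 probe set. Each deposited column had a 2% trimmed mean of 500.2, so the authors had scaled the arrays alike. The table held 31099 probe sets; 20832 were annotated to 1 gene, 436 to several and 9831 to none, and 20764 probe sets had their symbol brought up to date by Entrez ID from the GRCr8 RefSeq table.

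Signals under 126, the median, were raised to it, the brightest probe set (by mean signal) stood for its gene, and a gene was measured if 1 of its 2 arrays was above the floor. Differences of 1.5-fold and 2-fold were counted, with no test. The text names every member, with all 3 signals for those past 1.5-fold and for glycolytic isozymes, the other list's genes past 2-fold, and the promoters of up to 4 members past 2-fold under FSK/PMA. The members and lists were chosen with earlier results of these data known. The code was tested on simulated data. Python 3.11.15, pandas 2.3.3 and matplotlib 3.10.9 were used. Isozyme proteins were not compared here. Alternatives varied scaling, floor, probe set and symbol choice.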

Additional observations from a re-analysis of the deposited data

How the results depend on the processing

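With 1 array per group no replicate could be left out, and no paired analysis was possible because the groups hold 1 array each. Scaling to equal medians moved the FSK/PMA median of the members from -0.17 to -0.027 and the number at least 1.5-fold lower from 12 to 7; it moved the NFIL3 median from -0.02 to -0.25 and the 1.5-fold counts from 1 higher and 2 lower to 0 higher and 6 lower. A floor at the 75th percentile, with 35 of the members measured, took the FSK/PMA median to -0.065. The 1.5-fold counts became 3 higher and 7 lower and the 2-fold counts 0 higher and 1 lower. For NFIL3 it left 1 gene 1.5-fold lower and 0 genes 2-fold lower. A floor at the 25th percentile gave 3 members 1.5-fold higher and 1 member 2-fold higher with NFIL3. Without a floor 2 members were 1.5-fold higher with NFIL3, and the mean over probe sets gave 0. Of the 17 members past 1.5-fold with FSK/PMA and the 3 with NFIL3, 0 changed sign under the alternatives in which they were measured. Hk2, at least 0.83 on the log2 scale, read 2.28 with the lower floor and 3.49 without one, and Hk1 with FSK/PMA read -0.25 as the mean over probe sets. Pfkfb3 was still measured with the higher floor and read 0.26 and -0.26, since its signals under that floor were raised to it. Eno2 with FSK/PMA read 0.80 in the same way. The causes of the other shifts were not tested. With FSK/PMA the dim genes Hk2, Pdk2, Aldoc and Gpd1 have only bounds, as 1 of the 2 arrays lay under the floor.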

Other observations

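Among the further pathway genes, some that differed between 1.5-fold and 2-fold with FSK/PMA were partners of members, and they were picked after their values were seen. Suclg2, the GDP-forming beta subunit of succinyl-CoA ligase, had signals of 3794 in Ad-NFIL3 +FSK/PMA, 4091 in Ad-GFP +FSK/PMA and 6571 in Ad-GFP, 1.61-fold lower with FSK/PMA, where its ADP-forming counterpart Sucla2 was 1.59-fold higher. Me2, the mitochondrial malic enzyme, had 3587, 5496 and 2874 in the same order and was 1.91-fold higher with FSK/PMA, as Me1 was 1.80-fold higher, while Me3 was 1.71-fold lower. With NFIL3 Me2 was 1.53-fold lower, Me1 was 1.29-fold lower and Me3 was at least 1.64-fold lower.

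Of the mitochondrial pyruvate carrier, Mpc2 was 1.76-fold lower with FSK/PMA and Mpc1 differed by -0.01 on the log2 scale. H6pd, the hexose phosphate dehydrogenase of the endoplasmic reticulum, was 1.85-fold higher and Rpia, ribose phosphate isomerase, was 1.59-fold higher, whereas the members Pgd and Tkt were 1.68-fold and 1.52-fold lower. Another probe set of Rpia, dimmer than the first, differed by -0.38 on the log2 scale. The other measured pentose phosphate genes of the further list, Rpe, Rbks and Shpk, were 1.09-fold, 1.32-fold and at least 1.31-fold lower.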
